A study of Mus musculus with 12 samples.

Results

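The 10 genes described here encode the cyclins and cyclin-dependent kinases (CDKs) that drive the cell division cycle: the D-type cyclins Ccnd2 and Ccnd3, the E-type cyclins Ccne1 and Ccne2, cyclin A2 (Ccna2), cyclin B1 (Ccnb1) and the kinases Cdk1, Cdk2, Cdk4 and Cdk6. They were chosen by gene symbol from the 49585 genes of the count files, and all 10 passed the filter on low counts in every comparison. The libraries came from CD4 T cells of female mice carrying floxed alleles of Rnmt, the methyltransferase that completes the mRNA cap. Rnmt conditional knockout (Rnmt cKO) cells were Rnmt fl/fl CD4cre+ and control cells were Rnmt fl/fl CD4cre-, so that the genotypes differed in a Cre driven by the Cd4 promoter, which removes the floxed exon and is active from T cell development in the thymus onward. Naive CD4 T cells were taken from lymph nodes with an isolation kit and activated for 20 h on plates coated with antibodies to CD3 (5 ug/ml) and to CD28 (1 ug/ml), and both genotypes received cycloheximide for 1 min before lysis. For each genotype, 3 libraries of total cytoplasmic RNA (total RNA) and 3 of ribosome-protected fragments (RPF) were sequenced. Translational efficiency (TE) is the ratio of RPF to total RNA, so that a TE change is the genotype difference in RPF minus that in total RNA on the log2 scale.

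A resting T cell holds little cyclin, and stimulation through its receptor brings it into the cycle. D-type cyclins bind CDK4 and CDK6 in G1 and phosphorylate the RB family, which frees E2F factors to switch on the genes of DNA replication. Cyclin E with CDK2 then starts S phase, cyclin A2 with CDK2 and CDK1 carries it through, and cyclin B1 with CDK1 drives mitosis. CDK activity is further held by inhibitor proteins and by phosphorylation of the kinase, and the cyclins are removed by ubiquitin ligases.

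Rnmt itself followed the labels in all 12 libraries. Its level was 94.6 ± 0.75 CPM (reads on the gene relative to the library's total, scaled by TMM, SD, n = 3) in control total RNA and 30.7 ± 1.56 CPM in Rnmt cKO, and 97.0 ± 8.27 against 10.2 ± 0.50 CPM in RPF. All 10 T cell markers were detected, with Cd28 the most abundant in total RNA and Cd5 in RPF. Their summed level was 4376, 4236 and 4064 CPM in the control total RNA libraries and 3111, 3028 and 3483 CPM in those of Rnmt cKO. With the threshold used below (adjusted p under 0.05), 6 of the 10 fell and none rose in each kind of library. Among all genes, 26.3% rose and 28.0% fell in total RNA, and 14.1% rose and 15.7% fell in RPF. The fall of Trac in total RNA was lost without control replicate 2. That of Cd6 in RPF was lost without control replicate 1 or 3 or Rnmt cKO replicate 1 or 2. Of 7 T cell activation markers, 5 rose and none fell in each kind, beside the same shares of all genes. Their median log2 fold changes were 0.85 in total RNA and 0.74 in RPF. Among them were Il2, the T cell growth factor (1.48, SE 0.19, in total RNA and 1.83, SE 0.17, in RPF), and Cd44, an adhesion receptor of activated cells (2.19, SE 0.40, and 2.09, SE 0.25). Their summed level, with Tfrc the most abundant, was 1498 ± 23.8 CPM in control and 1932 ± 132 CPM in Rnmt cKO total RNA.

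B cell markers summed to 297, 291 and 309 CPM in control total RNA and to 336, 307 and 208 CPM in Rnmt cKO, and their RPF to 126, 117 and 182 CPM against 297, 332 and 90.1 CPM. Ighm held 281 of these CPM in the mean of control total RNA and fell (log2 fold change -0.44, SE 0.10, adjusted p = 0.0062), whereas 3 of the 6 tested in total RNA rose and 3 of 8 in RPF, beside 26.3% and 14.1% of all genes. The markers that rose were Cd22 (2.28, SE 0.83, and 3.12, SE 0.80), Ms4a1 (2.18, SE 0.78, and 2.84, SE 0.84) and Cd79b (1.92, SE 0.50, and 2.19, SE 0.63), and the list medians were 2.05 and 2.07. Ms4a1, which encodes CD20, had 3.13, 1.69 and 13.3 CPM in control total RNA and 33.7, 41.1 and 7.60 CPM in Rnmt cKO, high in Rnmt cKO replicates 1 and 2. Cd22 and Ms4a1 in total RNA and Ms4a1 in RPF missed the threshold when control replicate 1 or 2 or Rnmt cKO replicate 1 or 2 was left out, Cd22 in RPF when control replicate 1 or Rnmt cKO replicate 1 or 2 was, and Cd79b in RPF when any replicate but Rnmt cKO replicate 3 was. NK cell markers summed to 6.35 ± 0.93 and 28.9 ± 8.97 CPM, of which Eomes, a factor that activated T cells also express, held 2.90 and 25.4 CPM. Myeloid markers summed to 1.33 and 2.05 CPM in the means of the genotypes, with S100a8 at 0 in RPF, CD8 T cell markers to 28.2 and 19.2 CPM, and erythroid markers to 0.089 and 0 CPM. Of the myeloid markers, Fcer1g had 0.094, 0.15 and 0 CPM in control RPF and 1.29, 2.44 and 1.23 CPM in Rnmt cKO, and passed the filter only through the latter. Regulatory T cell markers summed to 169 and 136 CPM, mostly Ctla4, which did not pass the threshold. Ikzf2 rose in total RNA (1.12, SE 0.11) and RPF (1.34, SE 0.44) and Lrrc32 in total RNA (1.04, SE 0.36), the last pair of calls being lost when any of 5 replicates was left out (all but control replicate 3 for Ikzf2 in RPF and all but Rnmt cKO replicate 3 for Lrrc32). The part of other cells in the values below was not tested, and in bulk libraries fewer cells in a phase of the cycle and less RNA per cell cannot be told apart. The 6 total RNA libraries held 15079703 to 22629563 reads on genes and the 6 RPF libraries 4123271 to 10661356, the fewest in Rnmt cKO replicate 3.

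Ccnd2 and Cdk4 were the most abundant of the 10 genes and Ccnb1 the least in both kinds of library. Per kilobase of exon, control total RNA held 181 ± 4.95 CPM of Cdk4, 61.2 ± 12.5 of Ccnd2 and 48.0 ± 1.12 of Cdk2, followed by Ccne1 at 30.8 ± 4.30, Ccnd3 at 27.1 ± 1.59, Ccna2 at 24.4 ± 5.29, Ccne2 at 23.5 ± 3.57, Cdk1 at 15.6 ± 3.19 and Cdk6 at 12 ± 0.98. Ccnb1 stood at 2.65 ± 0.91 CPM per kilobase. The order from Ccne1 through Ccne2 was not fixed, because each gene's control range overlapped that of the next, and Cdk1 and Cdk6 overlapped as well. Among 10268 protein-coding genes tested, with a median of 9.95 CPM per kilobase, 98.2% lay below Cdk4, 91.3% below Ccnd2 and 20.3% below Ccnb1.

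Per kilobase of coding sequence, Ccnd2 led the RPF of control cells with 1306 ± 83.8 CPM, above 99.5% of 10321 protein-coding genes, whose median was 24.1 CPM. Cdk4 followed at 526 ± 30.5 CPM per kilobase, Cdk2 at 194 ± 17.7, Cdk1 at 164 ± 15.2, Ccnd3 at 141 ± 10.6, Ccna2 at 114 ± 27.3, Cdk6 at 76.7 ± 1.54, Ccne1 at 65.8 ± 13.1 and Ccne2 at 37.7 ± 5.98. Ccnb1 stood at 2.86 ± 0.46, with 12.5% of genes below it, while its kinase Cdk1 had 89.1% of genes below it. Only uniquely aligned reads were counted, and the loss of Ccnb1 reads that align in several places was not tested in either kind of library. In control RPF, Cdk2 and Cdk1, Ccnd3 and Ccna2, and Cdk6 and Ccne1 overlapped between neighbours. In Rnmt cKO RPF, Ccnd2 again led with 1853 ± 34.7 CPM per kilobase and Cdk4 was next with 550.1 ± 13.2, while Cdk1 with 221 ± 9.51 lay above Cdk2 with 193 ± 14.1 and the ranges of these last did not overlap. Scaling by library size alone left all of these ranks as they were in both genotypes.

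**Figure D1:**
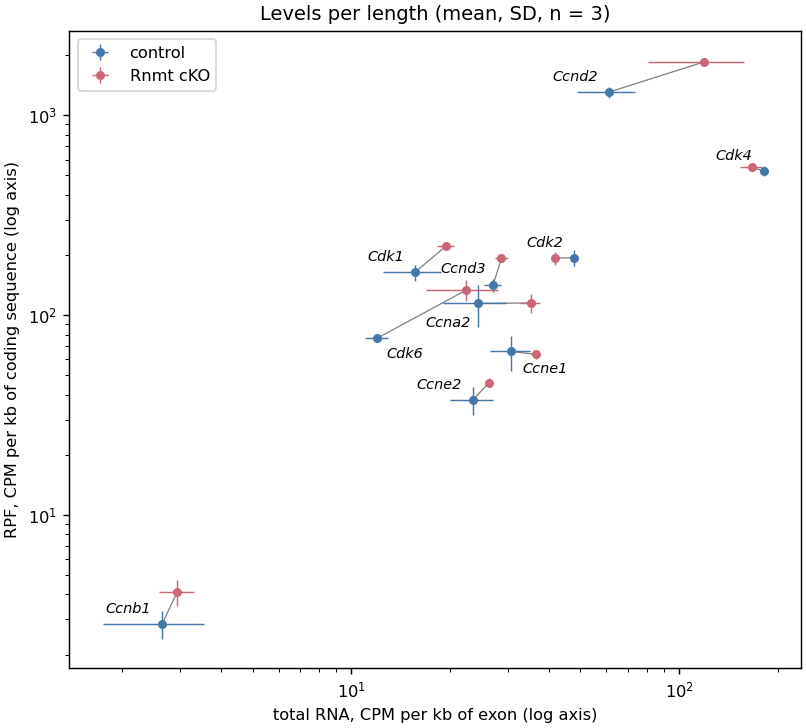
Mean level of each gene in total RNA (CPM per kilobase of exon, log axis) against RPF (CPM per kilobase of coding sequence, log axis) in control (blue) and Rnmt cKO (red) cells, with bars of 1 SD (n = 3) and a grey line joining the genotypes of a gene. Ccnd2 lies highest in RPF in both genotypes and Ccnb1 lowest on both axes.

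In total RNA, 3 of the 10 genes rose in Rnmt cKO cells (Ccnd2, Cdk6 and Ccna2) and 1 fell (Cdk2), by edgeR's quasi-likelihood test with an adjusted p under 0.05. Across the 11519 genes tested, 26.3% rose and 28.0% fell, so 3 of 10 is near the share of all genes. The same 4 genes were those whose genotypes did not overlap, against 30.0% of all genes without overlap that were higher and 32.3% that were lower. The median log2 fold change of the 10 genes was 0.20, beside -0.0037 for all genes. In RPF, 4 of the 10 rose (Cdk6, Ccnd2, Ccnd3 and Cdk1) and none fell, while 14.1% of 11428 genes rose and 15.7% fell. The RPF of these 4 and of Ccne2 and Ccnb1 did not overlap between genotypes, all higher in Rnmt cKO, against 22.2% of all genes higher without overlap and 24.3% lower. The median RPF log2 fold change of the 10 genes was 0.36, beside 0.01 for all genes. These rises and falls are in the share of the RNA sequenced. The authors report less mRNA per cell in activated Rnmt cKO cells, so that sequencing overestimates rises and underestimates falls. Whether the rises of the members hold per cell was not tested.

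Ccnd2 and Cdk6 were the only members past the threshold in both kinds of library. The summed CPM of all 10 genes was 1404 ± 62.4 in control and 1953 ± 303 in Rnmt cKO total RNA, and 2512 ± 78.6 and 3200.2 ± 7.57 in RPF, and the genotypes overlapped in neither. Ccnd2 alone made up the larger part of that difference.

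**Figure D2:**
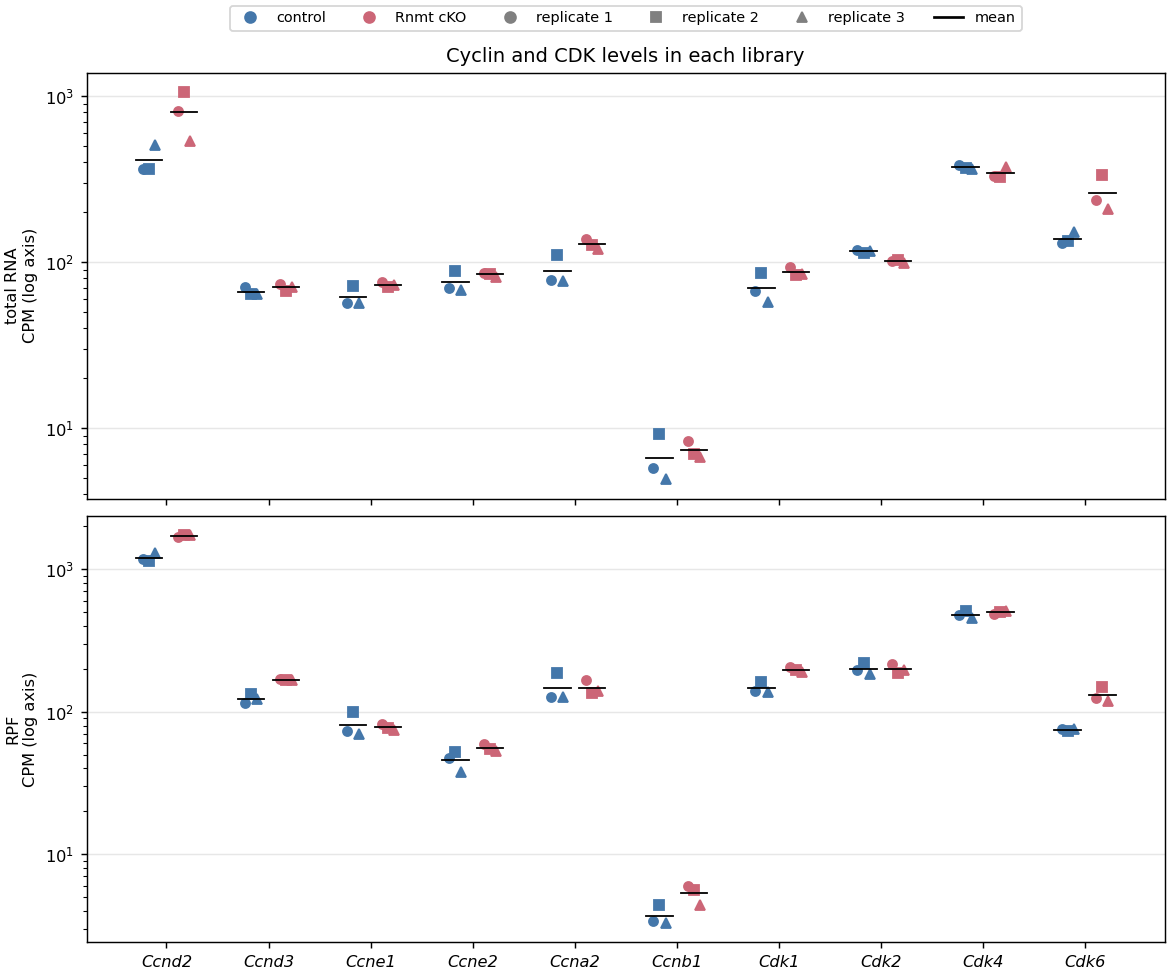
Level of each gene (CPM, log axis) in the 6 total RNA libraries (top) and the 6 RPF libraries (bottom), with control in blue, Rnmt cKO in red, a marker shape for each replicate and a line at the mean. The genotypes do not overlap for Ccnd2 and Cdk6 in both panels, for Ccna2 and Cdk2 in total RNA alone and for Ccnd3, Ccne2, Ccnb1 and Cdk1 in RPF alone.

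Cyclin D2, a D-type cyclin that T cells induce on stimulation, had the most RPF of the 10 genes. Ccnd2 (chr6:127125162-127152193 in GRCm38, minus strand) measured 362, 362 and 507 CPM in control total RNA and 812, 1057 and 535 CPM in Rnmt cKO. The genotypes did not overlap, but Rnmt cKO replicate 3 lay only just above control replicate 3. The log2 fold change was 0.97 (SE 0.24, adjusted p = 0.00988). In RPF the control libraries held 1181, 1152 and 1299 CPM and the Rnmt cKO libraries 1680.2, 1735 and 1737 CPM, a tighter spread with a log2 fold change of 0.50 (SE 0.07, adjusted p = 0.00149). In total RNA, Rnmt cKO replicate 3 was the lowest of its genotype for Ccnd2, for Ms4a1 and for the sum of B cell markers, and control replicate 3 the highest of the controls. In RPF, Rnmt cKO replicate 3 was the highest of its genotype for Ccnd2 and the lowest for the sum of B cell markers. Cdkn1a and Cdk9, described below, were also lowest in Rnmt cKO replicate 3 in total RNA, while Cdk4 was highest there. The part of B cells in the Ccnd2 values was not tested.

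Cyclin D3, the other D-type cyclin measured, showed a different course. Ccnd3 (chr17:47505051-47599691, plus strand) had 70.7, 64.3 and 63.7 CPM in control total RNA and 73.4, 66.9 and 70.6 CPM in Rnmt cKO, which overlapped (log2 fold change 0.09, SE 0.07, adjusted p = 0.317). In RPF it had 115, 133 and 123 CPM in control and 170.3, 167 and 168 CPM in Rnmt cKO. All 3 Rnmt cKO libraries lay above every control, with a log2 fold change of 0.45 (SE 0.07, adjusted p = 0.00236). Ccnd1, the third D-type cyclin, was below the count filter. D-type cyclins together held 477 ± 81.4 CPM in control and 872 ± 260 in Rnmt cKO total RNA, and 1334 ± 76.1 and 1886 ± 30.6 CPM in RPF. The ratio of Ccnd2 to Ccnd3 CPM was 9.83 ± 1.03 and 10.2 ± 0.29 in RPF and 6.24 ± 1.51 and 11.5 ± 4.13 in total RNA, with overlapping genotypes in both.

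The G1 kinases Cdk6 and Cdk4 differed from each other. Cdk6 (chr5:3341485-3531008, plus strand) rose from 129.5, 134 and 151 CPM in control total RNA to 235, 332 and 209 CPM in Rnmt cKO (log2 fold change 0.90, SE 0.16, adjusted p = 0.00202). Its RPF rose from 75.7, 73.3 and 76.0 CPM to 125, 148 and 119 CPM (log2 fold change 0.80, SE 0.09, adjusted p = 0.000546), the largest RPF change of the 10 genes. Neither kind overlapped, and Rnmt cKO replicate 2 was highest and Rnmt cKO replicate 3 lowest of its genotype in both, as they were for Ms4a1. Cdk4 (chr10:127063534-127067920, plus strand), the more abundant kinase, had 383, 369.5 and 363 CPM in control total RNA and 328, 326 and 372 CPM in Rnmt cKO, a log2 fold change of -0.12 (SE 0.07, adjusted p = 0.179). Without Rnmt cKO replicate 3, whose value lay within the controls, it was -0.17 with an adjusted p of 0.0379. Cdk4 RPF was 478 ± 27.8 against 500.0 ± 12 CPM and overlapped. CDK4 and CDK6 transcripts together held 510.0 ± 5.31 CPM in control and 601 ± 50.3 CPM in Rnmt cKO total RNA.

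E-type cyclins did not pass the threshold in either kind of library. Ccne1 (chr7:38097984-38107534, minus strand) had 56.7, 71.5 and 56.5 CPM in control total RNA and 75.2, 71.0 and 72.7 CPM in Rnmt cKO, where control replicate 2 reached the Rnmt cKO range (log2 fold change 0.25, SE 0.10, adjusted p = 0.0625). Ccne2 (chr4:11191351-11204779, plus strand) had 69.6, 88.4 and 67.8 CPM against 86.1, 85.2 and 81.5 CPM, again with control replicate 2 inside or above the Rnmt cKO range (log2 fold change 0.16, SE 0.10, adjusted p = 0.21). Without control replicate 2, the total RNA log2 fold changes were 0.36 for Ccne1 (adjusted p = 0.00589) and 0.29 for Ccne2 (adjusted p = 0.0129), both past the threshold. In RPF, Ccne1 was 80.6 ± 16 against 77.9 ± 4.13 CPM and overlapped. The RPF of Ccne2 was 47.2, 52.0 and 37.8 CPM in control and 59.0, 54.9 and 53.2 CPM in Rnmt cKO, with no overlap but an adjusted p of 0.102 (log2 fold change 0.29, SE 0.12). Without control replicate 2 it was 0.38 (adjusted p = 0.0497).

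Cdk2, the partner of cyclin E and cyclin A2, was the only member to fall. Cdk2 (chr10:128697939-128705031, minus strand) had 118, 113 and 116 CPM in control total RNA and 101, 102 and 98.7 CPM in Rnmt cKO, without overlap (log2 fold change -0.20, SE 0.05, adjusted p = 0.0109). The change was small, and its adjusted p was 0.0526 when control replicate 1 was left out and 0.0518 when Rnmt cKO replicate 1 was. Its RPF was 198, 221 and 185 CPM against 217, 188 and 196 CPM, with a log2 fold change of -0.01 (SE 0.08, adjusted p = 0.961).

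Cyclin A2 rose in total RNA and not in RPF. Ccna2 (chr3:36564865-36572150, minus strand) had 77.7, 111 and 77.2 CPM in control total RNA and 138, 127 and 119.6 CPM in Rnmt cKO, without overlap (log2 fold change 0.53, SE 0.14, adjusted p = 0.0126). It was 0.44 with an adjusted p of 0.0527 without control replicate 1. In RPF it had 127, 188 and 127 CPM in control and 167, 136 and 141 CPM in Rnmt cKO, so that control replicate 2 was the highest library of all 6 (log2 fold change 0.01, SE 0.16, adjusted p = 0.964).

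Cdk1, the mitotic kinase, rose in RPF. Cdk1 (chr10:69335146-69352938, minus strand) had 139.6, 162 and 137 CPM in control RPF and 206, 196 and 189 CPM in Rnmt cKO, and every Rnmt cKO library was above every control (log2 fold change 0.43, SE 0.08, adjusted p = 0.00465). Its total RNA was 66.9, 85.3 and 57.4 CPM against 92.7, 83.0 and 84.7 CPM and overlapped through control replicate 2 (log2 fold change 0.31, SE 0.13, adjusted p = 0.0792). Without that library the total RNA value was 0.48 (adjusted p = 0.00694). Ccnb1 (chr13:100778650-100786570, minus strand), its cyclin partner in mitosis, had 5.73, 9.16 and 4.91 CPM in control total RNA and 8.35, 6.97 and 6.70 CPM in Rnmt cKO, and 3.38, 4.37 and 3.31 against 5.97, 5.57 and 4.43 CPM in RPF. At this low level the RPF ranges lay side by side without overlap and the log2 fold change of 0.55 had an SE of 0.25 (adjusted p = 0.122).

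The promoters of Cdk1 and Cdk2 are shown because both hold the letters of an E2F site while the kinases took unlike courses over the 6 total RNA libraries (Pearson r of log2 CPM -0.76). RefSeq sequences of GRCm38.p6 covered 7 of the 10 genes with 8 promoters, and the 150 bases before the start are printed 5′ to 3′ on the strand of the gene. Capitals mark E2F sites (TTTCCCGC, TTTGGCGC or TTTCGCGC), the cell cycle homology region TTTGAA and the CCAAT box, each searched on both strands, and none of the marked letters overlap.
Cdk1, chr10:69352913-69353062, minus strand: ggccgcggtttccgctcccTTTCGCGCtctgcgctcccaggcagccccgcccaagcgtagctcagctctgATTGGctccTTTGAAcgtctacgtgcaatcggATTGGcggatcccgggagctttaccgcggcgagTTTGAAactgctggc
Cdk2, chr10:128705052-128705201, minus strand: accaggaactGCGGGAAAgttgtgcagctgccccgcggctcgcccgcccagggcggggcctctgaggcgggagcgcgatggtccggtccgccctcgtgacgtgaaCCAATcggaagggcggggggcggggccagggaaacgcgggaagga
Cdk1 holds 1 E2F site, 2 TTTGAA and 2 CCAAT boxes in reverse (ATTGG), and Cdk2 1 E2F site in reverse (GCGGGAAA) and 1 CCAAT box. Of the other promoters, that of Ccnb1 holds 2 CCAAT boxes and 1 of the 2 of Ccnd3 holds 1. Among 32851 promoters of the same length, 1.02% hold an E2F site, 9.07% TTTGAA and 24.5% a CCAAT box. A match of letters is a description and not a bound site.

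In TE, 1 of the 10 genes rose (Ccnd3) and none fell by the interaction test, against 3.24% of 10668 genes that rose and 6.57% that fell. The TE log2 fold change of Ccnd3 was 0.36 (SE 0.10, adjusted p = 0.0315), and its log2 ratio of RPF to total RNA was 0.70, 1.05 and 0.95 in control and 1.21, 1.32 and 1.25 in Rnmt cKO. The ratios did not overlap, but the adjusted p ran from 0.0628 to 0.181 when any of 5 replicates (total RNA and RPF together) was left out, all but control replicate 2. It was 0.0637 with no filter on low counts and 0.0744 with a replicate block. Ratios of Ccnd3 and Cdk4 lay higher without overlap and those of Ccne1 and Ccna2 lower, against 16.6% and 14.9% of all genes. The log2 ratio of Ccna2 was 0.71, 0.76 and 0.71 in control and 0.28, 0.10 and 0.23 in Rnmt cKO, and its TE log2 fold change was -0.52 (SE 0.23, adjusted p = 0.191). With a replicate block of genotype and number, which ties total RNA and RPF libraries of the same number, it was -0.52 (SE 0.09, adjusted p = 0.00322). Ccnd2 had ratios of 1.71, 1.67 and 1.36 in control and 1.05, 0.71 and 1.70 in Rnmt cKO, which overlapped through Rnmt cKO replicate 3 (TE log2 fold change -0.46, SE 0.27, adjusted p = 0.325). Cdk6, with more total RNA and more RPF by similar amounts, had a TE log2 fold change of -0.10 (SE 0.20, adjusted p = 0.814). The median over the 10 genes was 0.13, beside 0.04 for all genes.

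**Figure D3:**
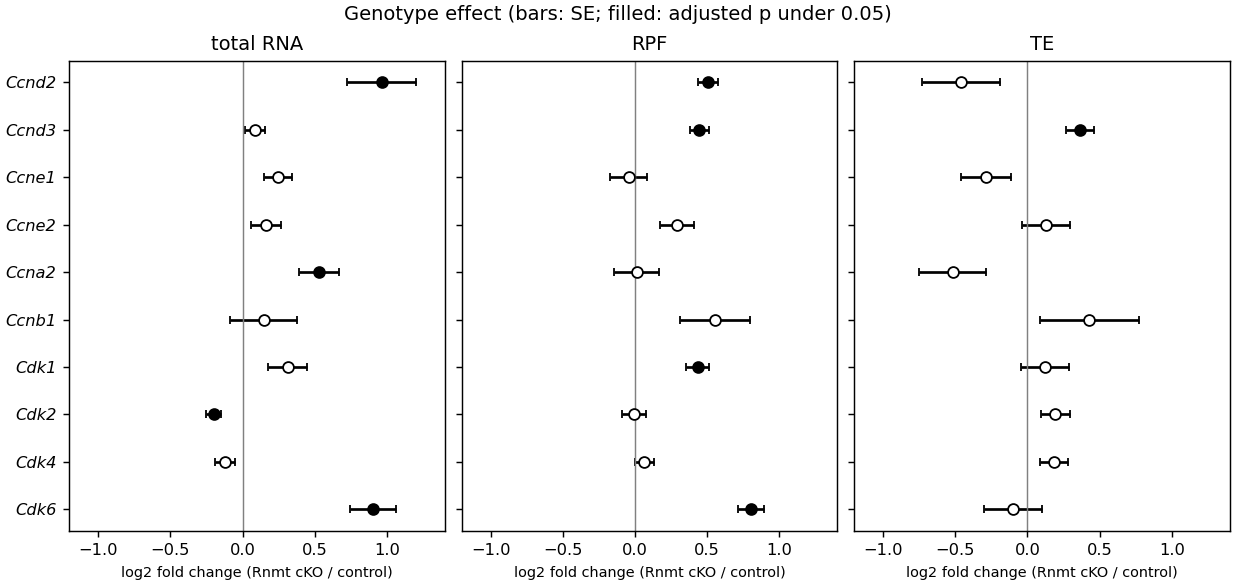
Log2 fold change of Rnmt cKO over control for each gene in total RNA, RPF and TE, with bars of 1 SE and filled points at an adjusted p under 0.05. Ccnd2 and Cdk6 are filled in total RNA and RPF, Ccna2 and Cdk2 in total RNA alone, Cdk1 in RPF alone and Ccnd3 in RPF and TE.

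Control replicate 2 stood above the other controls for the genes of mitosis. It was the highest control for 5 of the 10 genes in total RNA and for 8 of the 10 in RPF. Of 22 genes of G2 to M phase, such as Mki67, Plk1 and Bub1b, it was the highest control for 22 in total RNA and 21 in RPF, with median log2 differences of 0.45 and 0.42 from the mean of the other controls. Of 24 genes of G1 to S phase it was the highest control for 19 in total RNA and 15 in RPF, with smaller median log2 differences of 0.16 and 0.09, and control replicate 1 was the highest for 8 in RPF. Without control replicate 2, 6 of the 10 members rose in total RNA in place of 3, while 2463 of all genes rose in place of 3024. The part of control replicate 2 in the results was not tested beyond these values.

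**Figure D4:**
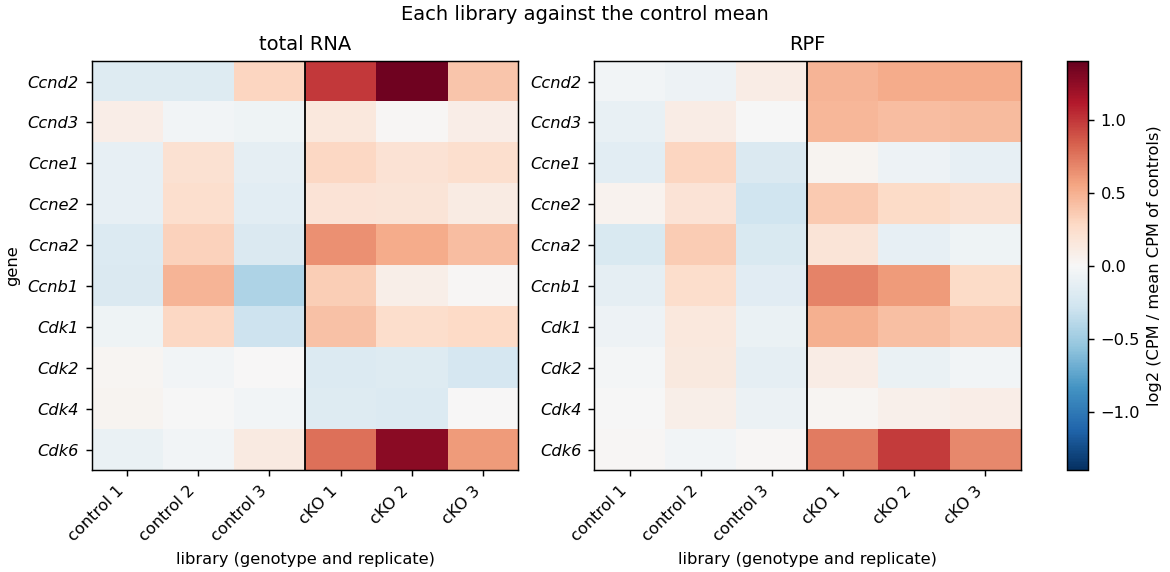
Log2 of the CPM in each library over the mean CPM of the controls, for each gene (rows) in total RNA (left) and RPF (right), with a black line between genotypes. Control replicate 2 is redder than the other controls for Ccne1, Ccne2, Ccna2, Ccnb1 and Cdk1, and Ccnd2 and Cdk6 are red in every Rnmt cKO library.

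Across the 6 total RNA libraries the 10 genes fell into unlike courses. Ccnd2 and Cdk6 were nearest to each other among the members (Pearson r of log2 CPM 0.96), and Ccne1 and Ccna2 had r = 0.98. Cdk2 was the least alike member for Ccne1, Ccne2, Ccna2, Ccnb1, Cdk1 and Ccnd3, with r from -0.88 for Ccna2 to -0.44 for Ccnb1. Among 7210 genes of at least moderate level, the gene nearest to Ccne1 was Ccnf, which encodes cyclin F (r = 0.99), that nearest to Ccnb1 was Ncapg, a condensin subunit (r = 0.99), and that nearest to Cdk6 was Nup153, of the nuclear pore (r = 1.00). The nearest were Suco for Ccnd2 (r = 1.00), Zfp146 for Ccnd3 (r = 0.97), Melk for Ccne2 (r = 0.98), Mrpl47 for Ccna2 (r = 1.00), Ckap2 for Cdk1 (r = 0.99), BC030336 for Cdk2 (r = 0.99) and Sertad1 for Cdk4 (r = 0.99). These values describe 6 points that share the genotype contrast and the libraries themselves, and the largest of many such values is high in so few points.

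CDK inhibitors held the largest change near these genes. Cdkn1a, which encodes p21, had 5.3, 7.3 and 9.1 CPM in control total RNA and 65.1, 66.4 and 41.8 CPM in Rnmt cKO (log2 fold change 3.003, SE 0.24, adjusted p = 4.43e-05), and its RPF rose from 35.7 ± 7.0 to 203 ± 3.3 CPM (log2 fold change 2.52, SE 0.12, adjusted p = 2.74e-05). Cdkn1b, which encodes p27, fell from 140.0, 151 and 142 CPM to 96.1, 83.5 and 113 CPM in total RNA (log2 fold change -0.57, SE 0.10, adjusted p = 0.00236). Of 8 inhibitor genes, 5 were tested in total RNA and 6 in RPF, and these were the 1 that rose and the 1 that fell in each kind, where 26.3% and 28.0% of all genes did so in total RNA and 14.1% and 15.7% in RPF. The fall of Cdkn1b RPF (log2 fold change -0.34, adjusted p = 0.0361) was past the threshold only with all 6 libraries or without Rnmt cKO replicate 3. In total RNA, 2 inhibitor genes rose when control replicate 2 was left out.

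The other cyclins and CDKs, many of them tied to transcription, held calls in both directions. Of 15 other cyclins tested in total RNA, 5 rose and 2 fell, beside 26.3% and 28.0% of all genes, and of 14 in RPF 3 rose and none fell, beside 14.1% and 15.7%. Ccno, counted among the 5 that rose in total RNA, passed the filter only through the Rnmt cKO libraries, with 0.69, 0.58 and 0.81 CPM in control and 1.43, 1.39 and 1.21 CPM in Rnmt cKO. In TE none of 14 rose and 1 fell, Ccnk. Ccnk and Ccnt1, partners of the transcriptional kinases CDK12 and CDK9, rose in total RNA by log2 fold changes of 0.89 (SE 0.20, adjusted p = 0.00614) and 0.73 (SE 0.06, adjusted p = 6.14e-05). Among the 15 other cyclins, rises in total RNA numbered 3 when Rnmt cKO replicate 1 or 3 was left out, and the falls 1 when control replicate 1 or Rnmt cKO replicate 1 or 2 was. In RPF, leaving out single replicates gave 2 to 4 rises, and 2 cyclins fell without Rnmt cKO replicate 3. The RPF of Ccnk was 71.7 ± 3.9 and 70.1 ± 1.9 CPM, and its TE log2 fold change was -0.93 (SE 0.23, adjusted p = 0.0218), which missed the threshold when control replicate 1 or 2 or Rnmt cKO replicate 1 was left out. With control replicate 2 left out, the 1 cyclin that fell in TE was Ccnt1 instead. Ccng2, encoding cyclin G2, fell (log2 fold change -0.47, SE 0.11, adjusted p = 0.00853). Of 12 other CDKs tested, 2 rose and 1 fell in total RNA and none rose and 1 fell in RPF, below the same shares of all genes, and in TE none rose and 2 fell, beside 3.24% and 6.57%. The fall in RPF was not called when control replicate 2 or Rnmt cKO replicate 1 or 2 was left out, and the falls in total RNA numbered 3 without Rnmt cKO replicate 2. Cdk9, which releases paused RNA polymerase, rose in total RNA from 30.2, 29.4 and 34.9 CPM to 64.4, 67.1 and 44.5 CPM, while its RPF was 109 ± 7.8 and 115 ± 4.8 CPM. Its TE fell (log2 fold change -0.82, SE 0.18, adjusted p = 0.0132). That call was lost when control replicate 1 or 2 or Rnmt cKO replicate 1 was left out. Cdk11b rose in total RNA (log2 fold change 0.42, SE 0.09, adjusted p = 0.00385) and fell in TE (-0.52, SE 0.10, adjusted p = 0.00528), and Cdk19, a Mediator kinase, fell in total RNA (-0.58, SE 0.08, adjusted p = 0.000453). The list medians in total RNA were 0.10 for the cyclins and -0.07 for the CDKs.

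Targets and partners of the cyclin D kinases changed in both directions as well. Of 19 RB and E2F genes, 8 rose and 3 fell in total RNA, beside 26.3% and 28.0% of all genes, and 4 rose and 2 fell in RPF, beside 14.1% and 15.7%. The falls in RPF numbered 1 when control replicate 1 or Rnmt cKO replicate 2 was left out. E2f8 and E2f7, which encode repressive E2Fs, rose in total RNA (log2 fold changes 0.96, SE 0.14, and 0.68, SE 0.15) and in RPF (0.87, SE 0.13, and 0.98, SE 0.14). Foxm1, an activator of mitotic genes, rose in total RNA (0.65, SE 0.12), and Mybl2, which encodes B-Myb, rose in RPF (0.60, SE 0.08). Rbl1, which encodes the RB relative p107, fell from 133, 143 and 132 CPM to 82.5, 88.9 and 86.7 CPM in total RNA (log2 fold change -0.66, SE 0.06, adjusted p = 7.31e-05) and by -0.74 on the log2 scale in RPF (SE 0.07, adjusted p = 0.000229). Tfdp2, an E2F partner, fell in total RNA (-0.35, SE 0.06). E2f4 fell in TE (-0.70, SE 0.09, adjusted p = 0.000459), the only gene of the list called there with all libraries. Among all genes, 3.24% rose and 6.57% fell in TE. When control replicate 1 was left out, 1 gene of the list rose in TE. Median log2 fold changes of the list were 0.10 in total RNA and 0.14 in RPF.

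Few regulators of CDK activity were called, and genes of cyclin removal held calls in both directions. Among 11 tested kinases, phosphatases and subunits that act on CDKs, Cdc25a, a phosphatase that activates CDK2 and CDK1, was the 1 that rose in total RNA (log2 fold change 0.41, SE 0.07, adjusted p = 0.00222) and in RPF (0.30, SE 0.06, adjusted p = 0.00919). Pkmyt1, an inhibitory kinase of CDK1, and Cdk5rap3 were the 2 that fell in total RNA (-0.61, SE 0.09, and -0.39, SE 0.07), and none fell in RPF. Among all genes, 26.3% rose and 28.0% fell in total RNA, and 14.1% rose and 15.7% fell in RPF. Falls numbered 3 in total RNA without Rnmt cKO replicate 3 and 1 in RPF without control replicate 2. Of 21 genes for ubiquitin ligases, 7 rose and 2 fell in total RNA and 5 rose and 1 fell in RPF, beside the same shares of all genes. The fall in RPF was not called when any 1 replicate other than control replicate 3 was left out, and leaving out single replicates gave 5 to 10 rises in total RNA. Fbxo5, an inhibitor of the anaphase-promoting complex, rose in total RNA (0.90, SE 0.12). Anapc11, the catalytic RING subunit of that complex, rose in both kinds (0.47, SE 0.11, and 0.93, SE 0.08). Skp2, which directs p27 to destruction, rose in RPF from 14.1, 10.9 and 12.3 CPM to 29.6, 22.1 and 19.4 CPM (log2 fold change 0.94, SE 0.18, adjusted p = 0.0062), and Anapc10 by 0.81 (SE 0.13). Fbxo31, whose product is the receptor of another ubiquitin ligase, and Anapc5 fell in total RNA (-0.49, SE 0.08, and -0.39, SE 0.06). No gene of either list passed in TE with all libraries. Anapc11 rose there without Rnmt cKO replicate 1, and a replicate block of genotype and number, which pairs the total RNA and RPF libraries of a number, called rises of Anapc11 and Pkmyt1 and a fall of Fbxo5. The same block gave 2 falls in TE among the other cyclins, Ccnk and Ccnt1.

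Among genes that work downstream of the cyclins, those of S phase fell in RPF and TE more often than they rose, and few of mitosis were called, with numbers that depended on the libraries. Of 24 G1 to S genes, 3 rose and 3 fell in total RNA, 1 rose and 9 fell in RPF, and none rose and 6 fell in TE, beside 26.3% and 28.0% of all genes in total RNA, 14.1% and 15.7% in RPF and 3.24% and 6.57% in TE. Leaving out single replicates gave 1 (Rnmt cKO replicate 2) to 5 (control replicate 3) falls in total RNA, where rises numbered 5 without control replicate 2, and 3 to 5 falls in TE, with 3 when control replicate 1 was left out. The rise in RPF was called only with all libraries or without control replicate 2 or Rnmt cKO replicate 3. Rrm2, a subunit of ribonucleotide reductase, Dtl and Chaf1a rose in total RNA (0.59, SE 0.14, then 0.56, SE 0.10, and 0.31, SE 0.05) and fell in TE (-0.85, SE 0.19, then -0.64, SE 0.13, and -0.63, SE 0.08), the fall of Rrm2 being lost without control replicate 1. Mcm6, of the replicative helicase, fell in RPF (-0.45, SE 0.07). Of 22 G2 to M genes, 2 rose in total RNA (Plk1, 0.89, SE 0.24, and Mki67, 0.64, SE 0.15), 1 rose in RPF (Bub1b, 0.27, SE 0.07) and none fell in either, all below the shares of all genes. The rise of Plk1 was lost without control replicate 1, and that of Bub1b without control replicate 1, control replicate 3 or Rnmt cKO replicate 2. Without control replicate 2, the highest control for nearly all of these genes, 8 of the G2 to M genes rose in total RNA and 7 in RPF, and without Rnmt cKO replicate 3 these were 6 and 2. The 9 falls of G1 to S genes in RPF were 5 when any 1 replicate other than control replicate 3 was left out and 11 without control replicate 3. List medians in RPF were -0.17 for G1 to S and 0.20 for G2 to M.

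**Figure D5:**
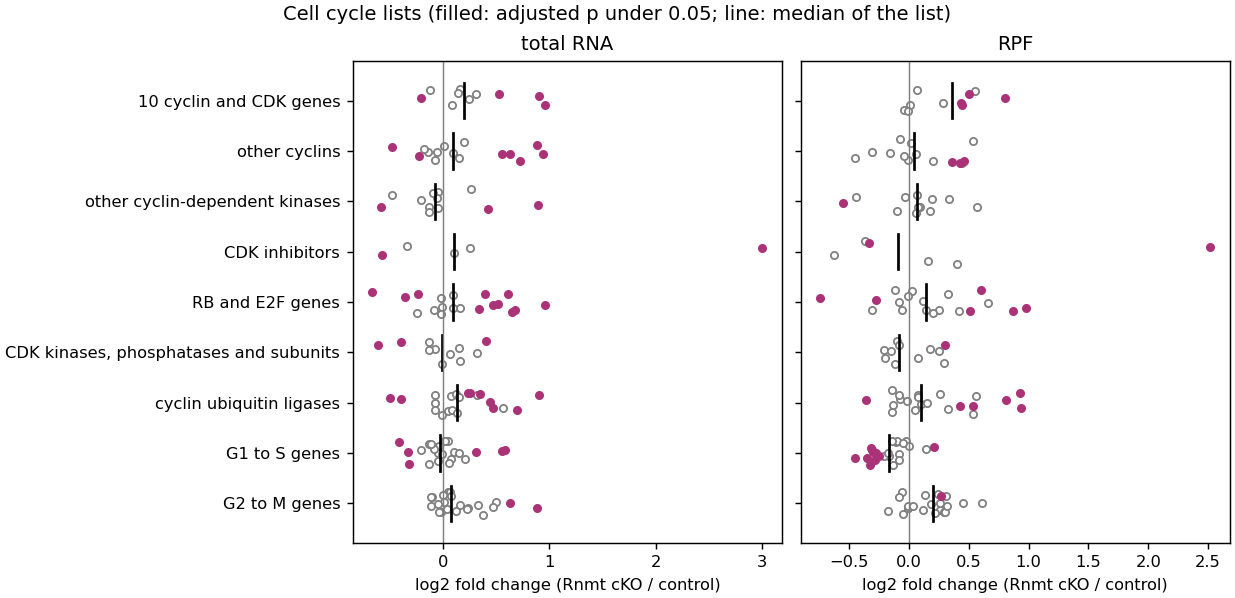
Log2 fold change (Rnmt cKO over control) of each tested gene of the cell cycle lists in total RNA (left) and RPF (right), filled at an adjusted p under 0.05, with a black line at the median of each list. Cdkn1a lies farthest to the right in both panels, and 9 of the 24 G1 to S genes are filled below 0 in RPF.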

How the data were processed

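The authors selected the second read, trimmed adapters with cutadapt, used Bowtie to discard rRNA and tRNA reads, aligned the rest to mm10 with STAR 2.5.2b and deposited, for each library, counts of uniquely aligned reads per gene. Between 7.48 and 33.6% of reads were unmapped and 22.9 to 31.0% aligned in several places, in rows that name no gene and stayed out of every total and test. Mitochondrial rRNA remained, with 18.7 to 23.6% of the reads on genes in total RNA and 2.30 to 4.51% in RPF. The authors also deposited a table of normalized signal values per library for 10126 genes, used here for symbols and to find the strand they counted: the counts of the gene's strand equalled these values times 1 factor per library for 100% of the genes with counts (10102 to 10126 per library), within a relative tolerance of 1e-06. Its columns of fold changes and p-values hold the authors' comparisons and were not used. Every gene that overlaps a member lies on the opposite strand, so these were counted apart. Positions, exon and coding lengths came from GENCODE vM21, in which 49326 of 49585 genes were found.

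A gene was tested where its CPM exceeded 1 in 3 or more libraries out of 6, in each kind separately and in both for TE. Genotypes were compared after TMM scaling by quasi-likelihood F tests (edgeR 4.0.16, R 4.3.3), within total RNA, within RPF, and for TE by a genotype-by-kind interaction fitted to all 12 libraries. Adjusted p-values are Benjamini-Hochberg over all genes tested, with a threshold of 0.05. SE is the size of the log2 fold change over the square root of F. The fits were tested on simulated data. With 3 against 3 libraries an exact permutation test cannot give less than 0.1, so none is printed. Tables and figures used Python 3.11.15, pandas 2.3.3 and matplotlib 3.10.9. As alternatives, TMM was dropped, DESeq2 1.42.0 or the exact test of edgeR was used, the filter was removed or raised to 10 counts per library, both strands were counted, replicate blocks were added, and each replicate was left out. Total RNA and RPF of the same genotype and number deviated together (correlations of 0.11 to 0.38, from the data), so they were taken as pairs in a TE alternative.

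Named are the 10 members, Rnmt, up to 3 called genes in each direction of each list and comparison with the largest change, the most abundant gene of a marker list and the gene of highest correlation with each member. Genes named as examples were chosen after their values were seen. A gene that is withheld is not reported here. The members and lists were chosen with earlier results of these data known. The labels do not say whether numbered replicates came from separate mice, so p-values measure the spread between these libraries. Duplicate reads were not set apart in these counts.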

Additional observations from a re-analysis of the deposited data

Results flagged for a closer look

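Ccnd3 was the 1 member whose genotype effect differed between kinds of library by a test of the difference itself in the fit without pairs. Its log2 fold change was 0.09 in total RNA and 0.45 in RPF, and the difference, the TE log2 fold change, was 0.36 (SE 0.10, adjusted p = 0.0315 by edgeR's quasi-likelihood test). The ratio of RPF to total RNA was higher in each of the 3 Rnmt cKO replicates than in any control. The call was lost when any replicate except control replicate 2 was left out. With the total RNA and RPF of a replicate fitted as a pair (replicate block of genotype and number), Ccna2 passed as well, with a TE log2 fold change of -0.52 (SE 0.09, adjusted p = 0.00322), and that of Ccnd3 was 0.36 (SE 0.10, adjusted p = 0.0472).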

How the results depend on the processing

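Of 389 fold changes of the members under the alternatives, 356 kept direction and side of the threshold, 11 came past it, 10 fell short of it and 12 turned direction. The rises of Ccnd2 and Cdk6 in total RNA and of Cdk6, Ccnd2, Ccnd3 and Cdk1 in RPF were kept under every alternative run. Members that rose in total RNA numbered 5 in place of 3 with DESeq2 and 5 with no filter on low counts, which added Ccne1 and Cdk1. In TE, where Ccnd3 rose, 0 members rose with no filter and 0 with a replicate block, and a replicate block of genotype and number called 1 that fell, Ccna2. Over all genes in TE, no filter gave 214 that rose in place of 346, and a replicate block gave 190 that rose and 456 that fell in place of 701. Genotypes do not pair by number (correlations of -0.48 to -0.17 for total RNA, -0.12 to 0.28 for RPF), and the block changed no other member's call.

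Over all genes, leaving out 1 replicate gave 2303 to 3145 rises and 2585 to 3151 falls for total RNA. For RPF it gave 1085 to 1414 rises and 1264 to 1526 falls, and for TE 122 to 367 rises and 415 to 812 falls. Among the members it gave 2 to 6 rises and 0 to 2 falls in total RNA, 4 to 5 rises and 0 falls in RPF, and 0 to 1 rises and 0 falls in TE. Total RNA falls were 0 where replicate 1 of either genotype was left out and 2 where Rnmt cKO replicate 3 was.

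The values that turned direction were small. Leaving out 1 replicate gave Ccnb1 total RNA values of -0.031 (control replicate 3 left out) to 0.45, and Ccne1 RPF values of -0.14 to 0.12 (control replicate 2). It gave Ccna2 RPF values of -0.095 to 0.22, below 0 with control replicate 1 or 3 or Rnmt cKO replicate 1 left out, and Cdk2 RPF values of -0.069 to 0.059, above 0 with control replicate 2 or Rnmt cKO replicate 2 or 3 left out. Cdk6 TE ran from -0.18 to 0.012 (Rnmt cKO replicate 2). Ccna2 RPF was -0.022 with no filter, and Cdk2 RPF was 0.019 with library size without TMM and 0.0042 with DESeq2. The causes were not tested. The exact test was not run for TE. Levels in controls moved by less than their SD under library size alone. Of 702 counts for all genes and the other lists, 98 moved by over 1.5 times.

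Values are relative to the RNA sequenced, and protein was not analysed here. With 3 libraries a group, RPF of Ccnb1 at 2.86 CPM per kilobase had a log2 fold change with an SE of 0.25, and a difference of that size could not be told from the spread at this depth.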
